A study of Mus musculus with 4 samples.

Results

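The balance of Dzip3 against ubH2A reads was measured in 8021 genomic regions of mouse embryonic stem (mES) cells. Peaks of the deposited Dzip3 and ubH2A lists (6482 and 6642 peaks) were merged where they overlapped by at least 1 bp, which gave 10233 merged regions, and the reads of the longest peak were kept. The 8021 regions are those whose kept peak overlapped no peak of the input DNA. Of these, 3332 came from the Dzip3 list only, 3319 from the ubH2A list only and 1370 from both lists. For each region the Dzip3 reads were divided by the ubH2A reads, each scaled to the size of its library, and the ratio is given as log2 with 0.5 reads added on each side. The 401 regions with the highest ratio (5%) are called the Dzip3 end and the 401 with the lowest ratio the ubH2A end, and the other 7219 lie between them.

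Dzip3 (also known as 2A-HUB) is a RING-type E3 ubiquitin ligase that can attach a single ubiquitin to histone H2A at a lysine of its C-terminal tail. The product, ubH2A, is a mark of repressed chromatin and is best known from Polycomb repressive complex 1, in which Ring1B is the catalytic ligase. In mES cells the mark and Ring1B are known for covering CpG-rich promoters of developmental genes, such as homeobox and Wnt genes. A site with many Dzip3 reads and few ubH2A reads, or the reverse, is a site at which the ligase and its product were not recovered together.

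All libraries came from E14 mES cells of the 129/Ola strain at passage 3-5, grown without feeders in 2i + LIF (the MEK inhibitor PD0325901 at 1 µM, the GSK3 inhibitor CHIR99021 at 3 µM and LIF at 1000 U/ml) and fixed for 10 min in 1% formaldehyde. There is 1 library each for Dzip3, ubH2A, Ring1B and input DNA, with 53.3, 67.0, 51.8 and 48.3 M reads, and the antibodies were raised in rabbits by the study. Neither replicates nor a library from a nonspecific antibody were used here, so no difference between libraries has a replicate error and no test was made. All intervals are 95% intervals. Those of ratios cover counting error only, and they can be too narrow, since PCR copies are not independent molecules. The library sizes, computed from the lists, exceed the depth in uniquely mapped reads that the paper states. Whether 1 molecule can count more than once in them was not tested, and it would make these intervals narrower than they should be. Those of medians and shares treat regions as independent draws and cover no error between libraries. The cell type could not be checked against markers in these data. The labels describe shearing with a Picoruptor and the paper describes micrococcal nuclease. A damaged row hides the ubH2A peaks of a part of chromosome 1, of chromosome 10 and of most of chromosome 11, where regions enter through the Dzip3 list alone. These 3 chromosomes hold 831 regions, 58 of the Dzip3 end and 15 of the ubH2A end. Their regions of the Dzip3 list only can include some whose ubH2A peak is hidden. Values for the list classes were not recomputed without these chromosomes.

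The sequences at the ends are shown first, because the largest read numbers at the ends lay in tandem repeats. All are 120 bases of the plus strand of mm9 around the centre of a region, or around the stretch that a pair shares. The first set holds tandem arrays of the hexamer AGGCAG on either strand, with runs of 3 or more copies in capitals, from the regions nearest to Zfp326 (chr5:106586631-106586750), Cecr2 (chr6:120582731-120582850), Hhex (chr19:37519683-37519802 and chr19:37519092-37519211) and Six3 (chr17:85964308-85964427).
Zfp326 array, Dzip3 end: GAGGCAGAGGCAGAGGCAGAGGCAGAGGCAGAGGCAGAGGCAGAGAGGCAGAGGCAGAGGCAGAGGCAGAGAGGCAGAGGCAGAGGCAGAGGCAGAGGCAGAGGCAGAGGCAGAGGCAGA
Cecr2 array, Dzip3 end: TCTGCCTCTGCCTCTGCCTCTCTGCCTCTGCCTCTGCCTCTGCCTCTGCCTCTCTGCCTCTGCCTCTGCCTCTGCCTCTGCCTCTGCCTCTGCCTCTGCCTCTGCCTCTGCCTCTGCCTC
Hhex array, Dzip3 end: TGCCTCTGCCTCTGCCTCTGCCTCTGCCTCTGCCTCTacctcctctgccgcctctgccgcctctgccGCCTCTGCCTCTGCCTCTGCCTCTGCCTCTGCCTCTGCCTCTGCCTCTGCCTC
Hhex array, ubH2A end: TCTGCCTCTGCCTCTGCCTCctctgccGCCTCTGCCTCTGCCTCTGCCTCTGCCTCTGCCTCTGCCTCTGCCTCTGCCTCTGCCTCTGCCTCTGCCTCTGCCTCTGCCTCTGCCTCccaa
Six3 array, ubH2A end: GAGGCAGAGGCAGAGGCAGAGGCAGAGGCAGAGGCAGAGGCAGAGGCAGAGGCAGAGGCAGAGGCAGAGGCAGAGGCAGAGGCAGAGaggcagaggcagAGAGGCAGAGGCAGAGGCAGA

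Other regions of the ubH2A end without a single Dzip3 read held CA repeats, with runs of 4 or more units of CA or TG in capitals. They are nearest to Vax1 (chr19:59214968-59215087) and Cryba4 (chr5:112562320-112562439).
Vax1 region, ubH2A end: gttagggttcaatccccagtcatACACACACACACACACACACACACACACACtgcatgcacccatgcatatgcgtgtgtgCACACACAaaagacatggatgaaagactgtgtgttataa
Cryba4 region, ubH2A end: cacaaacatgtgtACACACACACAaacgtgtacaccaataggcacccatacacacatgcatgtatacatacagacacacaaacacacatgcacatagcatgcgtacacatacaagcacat

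A further pair had nearly the same sequence at opposite ends, in an intron of Ptprt (chr2:161480422-161480541) and nearest to Plekhb2 (chr1:35215399-35215518). Capitals mark the 116 of 120 bases that both have in common.
Ptprt region, Dzip3 end: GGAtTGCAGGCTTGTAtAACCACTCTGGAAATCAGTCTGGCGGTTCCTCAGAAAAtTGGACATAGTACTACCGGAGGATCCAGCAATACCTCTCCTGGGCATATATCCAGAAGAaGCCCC
Plekhb2 region, ubH2A end: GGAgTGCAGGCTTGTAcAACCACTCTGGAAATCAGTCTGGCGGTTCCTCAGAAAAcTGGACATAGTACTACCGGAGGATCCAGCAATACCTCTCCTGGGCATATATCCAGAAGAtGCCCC

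The last pair lies close to transcription start sites (TSSs) in sequence that is unique in the genome, in a coding exon of Kazald1 (chr19:45151417-45151536) and in an intron of Scap (chr9:110283155-110283274), with CG in capitals.
Kazald1 region, Dzip3 end: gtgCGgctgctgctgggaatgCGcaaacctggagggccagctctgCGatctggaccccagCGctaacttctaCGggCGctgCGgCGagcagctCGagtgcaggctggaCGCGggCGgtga
Scap region, ubH2A end: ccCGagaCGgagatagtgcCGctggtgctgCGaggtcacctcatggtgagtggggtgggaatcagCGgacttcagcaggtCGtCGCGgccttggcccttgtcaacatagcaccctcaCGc

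The balance ranged widely, and over all regions the reads of the Dzip3 and ubH2A libraries showed almost no rank correlation. The median log2 ratio was 0.27 (0.21 to 0.33), the quartiles were -0.84 and 1.37, and the range ran from -7.31 to 7.88. On the chromosomes with complete lists the median was 0.11 (0.06 to 0.17). A ratio of 4-fold or more was found to Dzip3 in 1020 regions (12.7%) and to ubH2A in 683 regions (8.52%). The order of these shares turned over when the ratio was centred on the median of regions in both lists (0.33), which gave 8.50% to Dzip3 and 11.7% to ubH2A. The whole counting interval of the ratio lay at 4-fold or more to Dzip3 in 382 regions and to ubH2A in 250, and it included equal levels in 1734 regions (21.6%). Spearman's rho between Dzip3 and ubH2A reads, each scaled to 1 M library reads (RPM), was 0.01 across the 8021 regions and 0.60 across the 1370 regions of both lists. These values describe regions, which are not replicates, and regions of one list were called for their reads in that library.

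**Figure D1:**
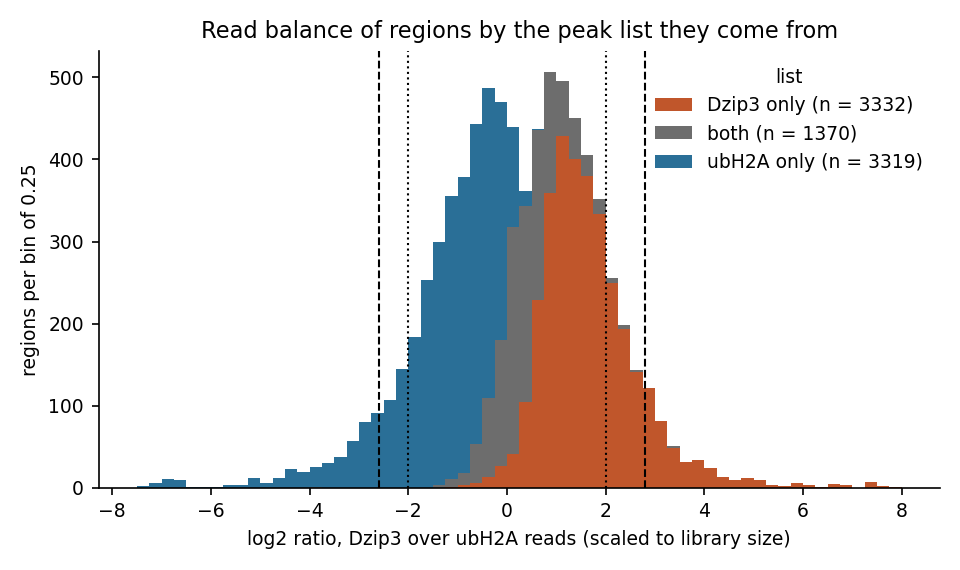
Number of regions by log2 ratio of Dzip3 over ubH2A reads (x axis, bins of 0.25), stacked by the list from which the region comes. Dotted lines mark 4-fold and dashed lines the limits of the 2 ends, and the 1370 regions of both lists lie in the middle.

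List membership and the ratio were tied. The Dzip3 end held 399 regions of the Dzip3 list only and 2 of both lists, and the ubH2A end held 400 of the ubH2A list only and 1 of both. Among regions of both lists, 1.02% were 4-fold or more to Dzip3 and 0.073% to ubH2A. The lowest log2 ratio inside the Dzip3 end and the highest outside it were 2.80 and 2.79. At the other limit both values were -2.59. As a description of the choice, the median level in the Dzip3 end was 5.75 Dzip3 and 0.541 ubH2A RPM per kb, and in the ubH2A end it was 0.421 Dzip3 and 4.65 ubH2A RPM per kb. Reads spread evenly over the sequenced genome would give 0.382. At each end the library that was low therefore lay close to the even level, and 33 regions held no Dzip3 read and 19 no ubH2A read.

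**Figure D2:**
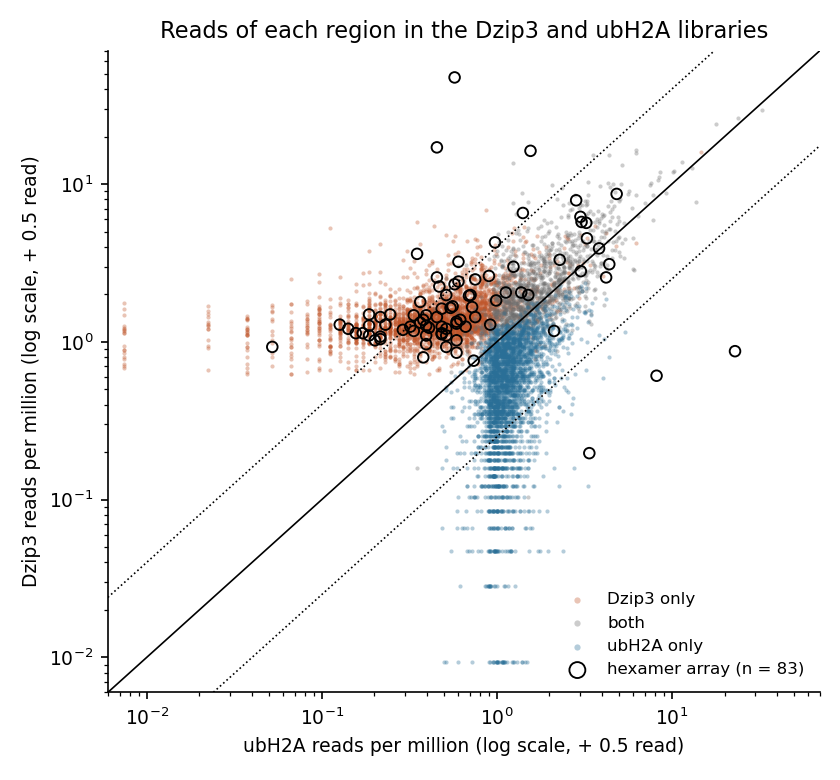
RPM (log scale) of each of the 8021 regions in the ubH2A (x axis) and Dzip3 (y axis) libraries, with 0.5 reads added, coloured by list. The solid line marks equal levels, the dotted lines 4-fold, and open circles the 83 regions with a hexamer array, which include the highest point for Dzip3 and the point farthest to the right among those far below the line.

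The ends lay at like distances from TSSs, with overlapping intervals. Measured from the region centre to the closest protein-coding TSS, the median distance was 32.7 kb (26.3 to 39.9) in the Dzip3 end, 27.8 kb (22.2 to 32.2) in the ubH2A end and 31.1 kb (29.8 to 32.3) between them. Within 4 kb of a TSS lay 55 of the 401 regions of the Dzip3 end (13.7%, Wilson interval 10.7 to 17.4) and 47 of the 401 regions of the ubH2A end (11.7%, 8.93 to 15.2), against 13.5% (12.7 to 14.3) between the ends. Within 1 kb the values were 6.73% (4.67 to 9.62), 3.99% (2.47 to 6.38) and 4.63% (4.17 to 5.14), in the same order. Beyond 100 kb lay 26.9% of the Dzip3 end and 25.2% of the ubH2A end. The intervals of the ends overlapped in every distance class. Of the regions within 4 kb, 33 of 55 in the Dzip3 end and 24 of 47 in the ubH2A end lay downstream of the TSS.

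The distance differed with the list and with the size of the ends. Regions of both lists were farther from a TSS (44.3 kb, 39.9 to 49.7) than regions of the Dzip3 list only (28.9 kb, 26.7 to 31.4) or of the ubH2A list only (27.4 kb, 25.5 to 29.8), and 8.39% of them lay within 4 kb. When the ends were taken as 1% of regions, the Dzip3 end lay 75.1 kb (37.9 to 108) and the ubH2A end 24.3 kb (15 to 36.8) from a TSS. When the ends were formed among the 3937 regions with mostly unique sequence, at most 50% of whose sequence words recur in the genome, the distances were 19.6 kb (14.4 to 25.9) and 20.5 kb (15.4 to 27.0). By annotation, 8.23% of the Dzip3 end and 5.99% of the ubH2A end had the centre in an exon, 37.2% (32.6 to 42.0) and 45.1% (40.3 to 50) in an intron, and 54.6% and 48.9% outside genes.

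**Figure D3:**
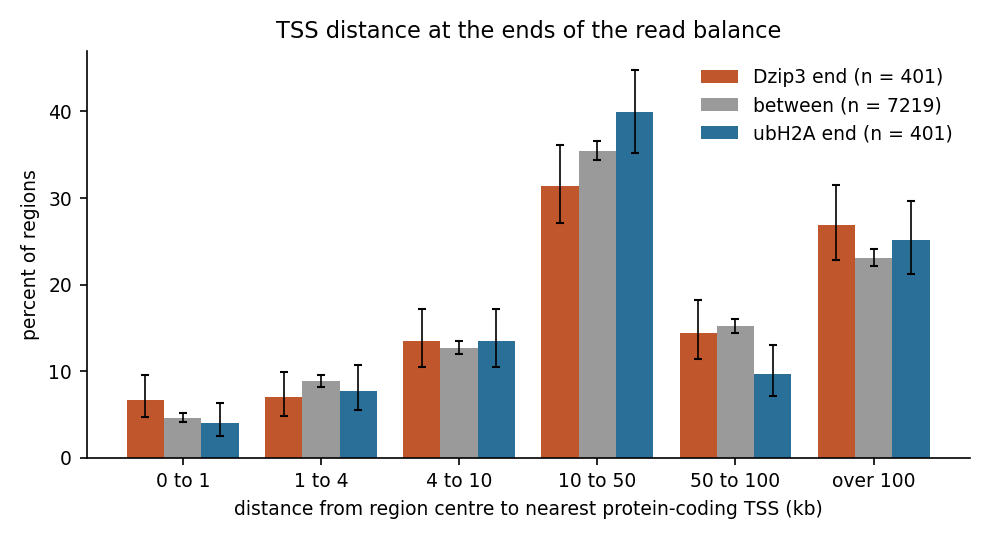
Percent of regions (y axis) by distance from the region centre to the nearest protein-coding TSS (x axis, kb) in the Dzip3 end, between the ends and in the ubH2A end. Bars start at 0 and error bars are 95% Wilson intervals, which overlap between the 2 ends in every class.

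Repeat content differed between the ends. To describe repeats, the 200 bases at each region's centre were cut into all words of 31 bases, and the share of words that occur more than once in mm9 was taken. Its median was 34.7% (23.5 to 46.5) in the Dzip3 end, 1.18% (0 to 3.53) in the ubH2A end and 57.6% (54.1 to 61.8) between the ends, and 87.1% in regions of both lists. Regions with more than 50% repeated words made up 43.4% (38.6 to 48.3) of the Dzip3 end and 25.9% (21.9 to 30.4) of the ubH2A end. The GC content was alike, with intervals of the median of 49.8 to 52.2% in the Dzip3 end and 49.5 to 51.0% in the ubH2A end. The ratio of observed to expected CpG was 0.194 in the Dzip3 end, 0.192 in the ubH2A end and 0.162 between. Most regions at either end were thus poor in CpG. Both ends held shorter regions (medians of 214 and 220 bp) than the rest (253 bp), and 36.4% and 38.7% had the shortest listed length of 200 bp against 25.3% between.

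Short words were searched on both strands of the same 200 bases. The CA repeat (searched as CACACACA) was in 31.2% (26.8 to 35.9) of the ubH2A end, 23.7% (19.8 to 28.1) of the Dzip3 end and 22.4% of all regions. The E-box, searched as CACGTG, was in 12% (9.15 to 15.5) of the ubH2A end, 5.99% (4.06 to 8.75) of the Dzip3 end and 6.03% of all regions, and 19 of the 48 E-box regions of the ubH2A end also held the CA repeat. The core that Sox factors bind, searched as CATTGTT, was in 4.74% (3.05 to 7.28) of the Dzip3 end, 3.49% (2.09 to 5.77) of the ubH2A end and 2.59% of all regions. The octamer ATTTGCAT was in 2.24% and 1.75% of the ends (1.28% of all), the GC box (searched as GGGCGGG) in 2.00% and 1.75% (1.70% of all), and the repeat GAGAGAGA in 2.24% and 2.49% (2.29% of all). A piece of the CTCF motif, AGGGGGC, was found in 10 regions of the Dzip3 end and 2 of the ubH2A end (1.87% of all regions), and the Esrrb motif TCAAGGTCA in 1 and 2. A match of letters is no evidence that a factor binds there.

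Opposite ends shared repeated sequence. Of the Dzip3 end, 132 regions (32.9%, 28.5 to 37.7) shared at least 1 word of 31 bases with a region of the ubH2A end, and 69 regions of the ubH2A end (17.2%, 13.8 to 21.2) shared one with the Dzip3 end. Without hexamer arrays and CA repeats these were 98 of 297 and 55 of 273 regions. The words of the sharing regions occur in mm9 with a median of 5717 copies (Dzip3 end) and 3750 copies (ubH2A end). The same share was not computed for regions between the ends, so whether such sharing is particular to the ends was not tested. The Ptprt region had 64 Dzip3, 0 ubH2A, 50 Ring1B and 2 input reads. The Plekhb2 region had 0 Dzip3, 81 ubH2A, 4 Ring1B and 21 input reads. The central 200 bases of this pair matched at 195 positions, and their words occur in mm9 with a median of 12486.5 and 3750 copies. The region in an intron of Amph (78 Dzip3 and 0 ubH2A reads) shared a run of 69 bases with the region nearest to Mcm5 (0 Dzip3 and 83 ubH2A reads). The region nearest to Svip (279 Dzip3 and 7 ubH2A reads) shared 77 bases with the opposite strand of the region nearest to Gm14632 (2 Dzip3 and 159 ubH2A reads). The methods of the study state the sequencing depth in uniquely mapped reads. Whether the deposited counts hold such reads alone is not given in the sources used here, and the part of read assignment in these ratios was not tested.

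Over all regions, Ring1B was higher between the ends than at either end. Ring1B reads played no part in the order of the regions. Their median was 2.06 RPM per kb (1.93 to 2.32) in the Dzip3 end, 1.93 (1.81 to 2.03) in the ubH2A end and 3.19 (3.14 to 3.26) between the ends. A listed Ring1B peak overlapped 76 of the 401 regions of the Dzip3 end (19.0%, 15.4 to 23.1), 28 of the 401 regions of the ubH2A end (6.98%, 4.88 to 9.91) and 33.5% (32.4 to 34.6) of the regions between. With the regions put in 10 equal groups by ratio, the share rose from 9.34% at the ubH2A side to 54.7% and 56.2% in the groups with median log2 ratios of 0.03 and 0.53, and fell to 18.6% at the Dzip3 side. The input followed a like course, from 0.414 RPM per kb in the ubH2A end and 0.244 in the Dzip3 end to 0.697 in the group at 0.03, so its part in the Ring1B course was not tested.

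Within each single list the share also fell away from balance. In 4 equal groups of the Dzip3 list only, a Ring1B peak overlapped 38.2% (34.9 to 41.5) of the group nearest to balance and 18.4% (15.9 to 21.1) of the group with the highest ratio, while the median Dzip3 level stayed at 5.63 and 5.79 RPM per kb. These groups can include regions of chromosomes 1, 10 and 11 whose ubH2A peak is hidden. The part of such regions in this fall was not tested. For the ubH2A list only, the share was 30.8% (27.8 to 34.1) nearest to balance and 9.40% (7.60 to 11.6) at the lowest ratio. Regions of both lists overlapped a Ring1B peak in 73.3% (70.9 to 75.6), and here the course was another. Their share was 65.2% (60.0 to 70.1) in the group with a median log2 ratio of 0.18 and 85.4% (81.3 to 88.8) in the group at 1.01, with median Ring1B levels of 5.01 and 6.64 RPM per kb. The difference between the ends went with repeated sequence: in ends formed among regions with at most 50% repeated words, 11 of 197 regions of the Dzip3 end (5.58%, 3.15 to 9.72) and 9 of 197 of the ubH2A end (4.57%, 2.42 to 8.45) overlapped a Ring1B peak, against 16.2% (15.1 to 17.5) between. Among regions with over 50% repeated words the shares were 32.8% (26.8 to 39.6) and 11.8% (8.03 to 16.9), against 48.4 to 51.6% between. The 76 regions of the Dzip3 end with a Ring1B peak had a median of 92.9% repeated words, and the 325 without one had 18.2%. The part of repeated sequence in the Ring1B difference was not tested beyond this split.

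**Figure D4:**
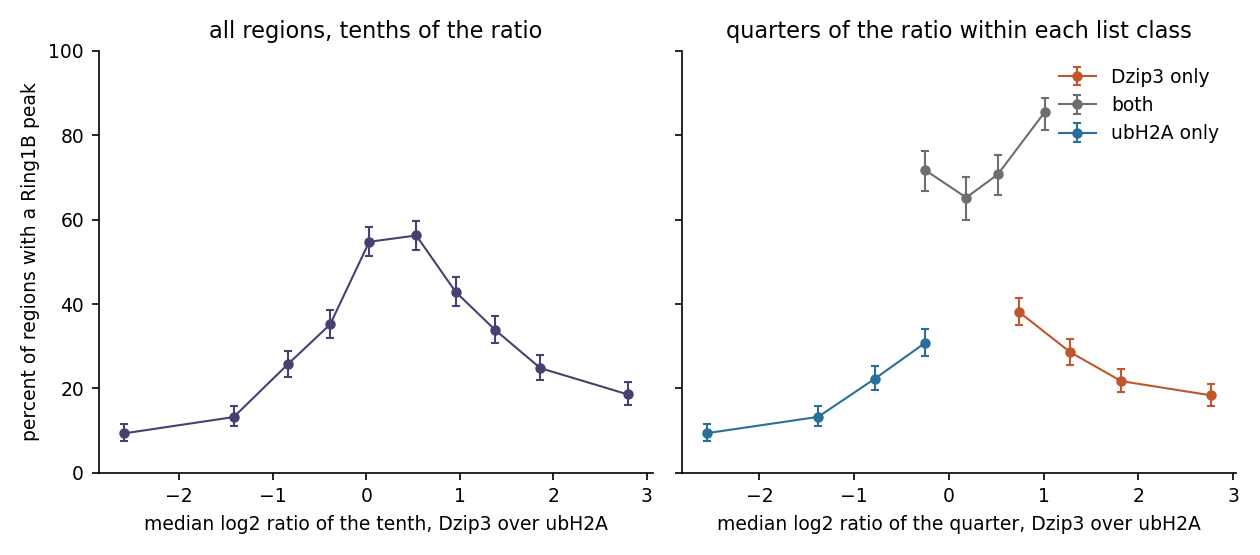
Percent of regions that overlap a Ring1B peak (y axis) against the median log2 ratio of each group (x axis), for 10 equal groups of all regions (left) and 4 equal groups within each list class (right), with 95% Wilson intervals. In the left panel the share is highest near balance (56.2%), whereas in regions of both lists it is highest in the group that leans most to Dzip3 (85.4%).

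A few hexamer arrays carried the largest read numbers at the ends. Arrays were in 9 regions of the Dzip3 end (2.24%, 1.19 to 4.21), 3 of the ubH2A end (0.748%, 0.255 to 2.18) and 0.984% of the regions between. Over all arrays the medians were 76 Dzip3 and 37 ubH2A reads. The array was noticed in the sequences after the ratios were known, so its values are a description. Of the 83 regions with 3 or more tandem copies in the central 200 bases, 59 came from the Dzip3 list only, 19 from both and 5 from the ubH2A list only. These are 1.77% (1.38 to 2.28) of the regions of the Dzip3 list only and 0.151% (0.064 to 0.352) of those of the ubH2A list only. The first class includes regions of chromosomes 1, 10 and 11, where ubH2A peaks are hidden. The array nearest to Dusp23 on chromosome 1, with 136 Dzip3 and 282 ubH2A reads, counts there. The shares were not recomputed without these chromosomes. The median log2 ratio over the arrays was 1.54 (quartiles 0.90 and 2.26, against -0.84 and 1.37 over all regions). Of the 83 arrays, 76 lay above 0, against 55.7% of all regions. Arrays with the unit on the plus strand (43) and on the minus strand (40) were about as frequent. A Ring1B peak overlapped 53 of the 83 arrays (63.9%), against 31.5% of all regions. Among regions with over 50% repeated words, it overlapped 49.97% of those between the ends formed among them. The part of repeated sequence in the share of the arrays was not tested.

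The array 252.8 kb downstream of Zfp326, in intergenic sequence, held 2526 Dzip3 reads, 38 ubH2A reads, 3281 Ring1B reads and 4 input reads. Its Dzip3 level was 83.6-fold that of ubH2A (60.8 to 118). The array 33.6 kb upstream of Cecr2, a gene for a chromatin remodelling protein, held 910 Dzip3, 30 ubH2A, 138 Ring1B and 7 input reads, a ratio of 38.2-fold (26.6 to 56.9). The ubH2A end held 3 arrays, all intergenic and without a Ring1B peak. Gdnf, which encodes a neurotrophic factor, had one 28.7 kb downstream of its TSS, with 10 Dzip3, 226 ubH2A, 38 Ring1B and 2 input reads. Six3, a homeobox gene of the forebrain and eye, had one 48.6 kb upstream, with 32 Dzip3, 548 ubH2A, 50 Ring1B and 7 input reads. The ubH2A levels of these were 18-fold (9.59 to 38.0) and 13.6-fold (9.53 to 20.1) those of Dzip3.

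Hhex, a homeobox gene of the early endoderm and of blood vessels and liver, had an array of each end. The array 7.92 kb downstream of the TSS held 46 Dzip3 reads, 1539 ubH2A reads, 61 Ring1B reads and 10 input reads. The array 8.51 kb downstream held 865 Dzip3 reads, 104 ubH2A reads, 392 Ring1B reads and 1 input read. The first leaned to ubH2A by 26.6-fold (19.8 to 36.5) and the second to Dzip3 by 10.5-fold (8.53 to 13.0), although only 229 bases lie between them. Ring1B followed Dzip3 across this pair, with a Ring1B peak on the second array and none on the first. The words of the arrays occur in mm9 with medians of 26210 and 26345 copies.

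**Figure D5:**
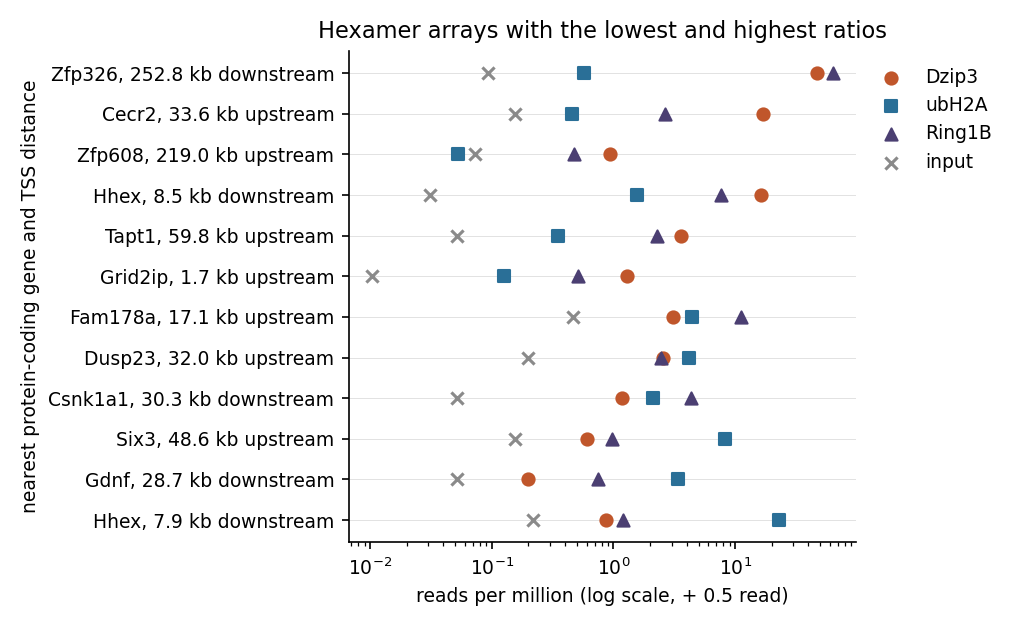
RPM (x axis, log scale, 0.5 reads added) in the 4 libraries for the 6 hexamer arrays with the lowest and the 6 with the highest ratios, named by the nearest protein-coding gene and the distance to its TSS. The pair at Hhex sits on opposite sides, with ubH2A highest at 7.9 kb and Dzip3 highest at 8.5 kb.

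The likeness of neighbouring regions differed with the list. Across 1175 pairs of regions next to each other within 5 kb, Spearman's rho of the log2 ratios was 0.12. It was 0.46 across 143 pairs of the Dzip3 list only, 0.19 across 252 pairs of the ubH2A list only and -0.06 across 131 pairs of both lists. The other pairs joined regions of different list classes, which the way they were called places on different sides. Pairs on chromosomes 1, 10 and 11, where ubH2A peaks are hidden, were kept, and their part in the difference between lists was not tested. Of the Dzip3 end, 36 regions had another region within 5 kb, which leaned to Dzip3 in 17 cases and belonged to the ubH2A end in 3. Of the ubH2A end, 43 had one, which leaned to ubH2A in 21 cases and belonged to the Dzip3 end in 4. Over all regions, 55.7% leaned to Dzip3 (log2 ratio above 0) and each end holds 5%. The counts of neighbours are too small to show a difference from these shares.

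The other leading regions had fewer reads. The 10 leading regions of each end were taken by the bound of the counting interval nearest to balance. In the Dzip3 end, 7 of the 10 had no ubH2A read, 3 a hexamer array or CA repeat, 6 more than 50% repeated words and 3 a Ring1B peak. In the ubH2A end, 8 of the 10 had no Dzip3 read, 7 an array or CA repeat, 4 more than 50% repeated words and 1 a Ring1B peak. Over the whole ends, an array or CA repeat was in 25.9% (Dzip3 end) and 31.9% (ubH2A end), against 23.5% of all regions. More than 50% repeated words were in 43.4% and 25.9% of the ends, and a Ring1B peak in 19.0% and 6.98%, in the same order. The region in an intron of Gna15, which encodes the alpha subunit of a G protein, had 93 Dzip3, 0 ubH2A, 14 Ring1B and 2 input reads. Its Dzip3 level was at least 31.1-fold higher by the exact 95% bound, which counts the error of both libraries, and 39-fold higher when set against 3 ubH2A reads, the limit that a count of 0 allows. The region 26.4 kb downstream of Vax1, a homeobox gene of the forebrain and eye, had 0 Dzip3, 99 ubH2A, 19 Ring1B and 7 input reads, and its ubH2A level was at least 20.9-fold higher by the exact bound (26.2-fold against 3 Dzip3 reads).

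Further leading regions of the Dzip3 end lay in an intron of Cadps with Fezf2 as the nearest TSS (85 Dzip3 and 0 ubH2A reads), near Pabpc2 (65 and 0) and near Ptpn1, which encodes a tyrosine phosphatase (63 and 0), besides those at Zfp326, Cecr2, Gna15, Amph, Svip and Ptprt. In the ubH2A end they lay in an intron of Rbms3 (0 Dzip3 and 97 ubH2A reads), near A430005L14Rik (0 and 93), near Cryba4, a lens crystallin gene (0 and 93), near Klhl2 (0 and 87) and in an intron of Ankrd26 with Zfp9 as the nearest TSS (0 and 84), besides those at Vax1, Hhex, Mcm5, Gm14632 and Plekhb2. The one in Ankrd26 overlapped a Ring1B peak and held 97 Ring1B reads. The exact bounds of the leading regions without a read of the other library ran from at least 20.9-fold to at least 31.1-fold in the Dzip3 end and from at least 17.1-fold to at least 20.9-fold in the ubH2A end.

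Genes with a TSS within 4 kb of a region numbered 62 for the Dzip3 end and 52 for the ubH2A end. By the same bound, the first of the Dzip3 end included Gna15, Kazald1, Oplah, Gm10345, Troap, H2-Ab1, Sncb, Dip2a and Agtpbp1. Kazald1, which encodes a secreted protein with a Kazal-type inhibitor domain, had its region in a coding exon 847 bp downstream of the TSS, with 83 Dzip3, 3 ubH2A, 104 Ring1B and 0 input reads. Its ratio was 34.8 (11.5 to 172), and it was the only one of the 10 genes whose region overlapped a Ring1B peak. That region was also rich in GC (70.9%) and CpG (observed over expected 0.937). H2-Ab1, a beta chain of MHC class II, had 58 Dzip3, 3 ubH2A, 24 Ring1B and 3 input reads in an intron 432 bp downstream of the TSS. Sncb, the gene for beta-synuclein, had 74, 5, 40 and 0 reads in a UTR, in the same order, at 100 bp from the TSS. Oplah and Gm10345 shared 1 region, with 63 Dzip3 and 2 ubH2A reads. The ratios of the named genes' regions ran from 17.8 to 39.6 where ubH2A had a read.

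The first genes of the ubH2A end were Scap, Lat2, 1700001O22Rik, Ces5a, Nphs1, Vps13d, Hnrnpl, Cbr2, Dcxr and Pcca. Scap, whose product escorts the SREBP factors of cholesterol synthesis, had 0 Dzip3, 73 ubH2A, 55 Ring1B and 2 input reads in an intron 2417 bp downstream of the TSS. Its ubH2A level was at least 15.3-fold higher than that of Dzip3 by the exact bound (19.3-fold against 3 Dzip3 reads). Lat2, an adaptor protein of lymphocytes, had 2 Dzip3, 85 ubH2A, 16 Ring1B and 3 input reads in a UTR 34 bp from the TSS, a ratio of 33.8 to ubH2A (9.07 to 283). Nphs1, which encodes nephrin of the kidney filter, had 2 Dzip3, 79 ubH2A, 41 Ring1B and 16 input reads in an intron with a CA repeat. Hnrnpl, the gene of an RNA-binding protein, had 1 Dzip3, 57 ubH2A, 7 Ring1B and 10 input reads. Cbr2 and Dcxr, a pair of neighbouring reductase genes, shared 1 region with 2 Dzip3 and 67 ubH2A reads. None of these 9 regions overlapped a Ring1B peak. Each of them had at most 2 Dzip3 reads, so the size of its ratio is set by few counts.

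Within 100 kb of a TSS, 994 of the 22380 protein-coding genes (4.44%) had a region of the Dzip3 end and 1002 (4.48%) a region of the ubH2A end. A region of any ratio was within that reach of 10589 genes (47.3%). Both ends were within reach of 61 genes, 6.14% of the genes of the Dzip3 end and 6.09% of those of the ubH2A end. The following lists are counted against these shares, and neighbouring genes can share a region.

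Homeobox genes outside the Hox clusters were reached by both ends. Of 93 such genes, which encode transcription factors of patterning, 7 (7.53%) had a region of the Dzip3 end and 8 (8.60%) a region of the ubH2A end within 100 kb. Of the 5 regions of the Dzip3 end behind this count, 4 overlapped a Ring1B peak, and of the 9 regions of the ubH2A end none did. Over the whole ends the shares were 19.0% (Dzip3 end) and 6.98% (ubH2A end). The 9 regions are thus too few to differ from the ubH2A end, and the difference of the 5 from the Dzip3 end was not tested. Hhex alone had a region of either end within 10 kb. Of the 40 Hox genes, 17 had a region of any ratio within 100 kb and none had one of either end.

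Sox and Fox genes, which encode further families of transcription factors, had 3 of 62 members (4.84%) near the Dzip3 end and 7 (11.3%) near the ubH2A end, the latter from 6 regions. Foxp1 had the only one within 10 kb, a region of the Dzip3 end in its own intron with 76 Dzip3, 9 ubH2A, 4 Ring1B and 8 input reads, a ratio of 10.6 (5.31 to 24.1). Of 41 T-box, Gata and proneural bHLH genes, none was near the Dzip3 end and 2 (4.88%) were near the ubH2A end, namely Tbx1 and Mga, which were named after their values were seen.

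The Wnt, Fgf and Bmp ligands, secreted signals of development, had 5 of 52 members (9.62%) near the Dzip3 end and none near the ubH2A end. All 5 were Wnt genes (Wnt10b, Wnt1, Wnt9b, Wnt3 and Wnt7b) and they shared 3 regions. Of these regions, 2 overlapped a Ring1B peak, against 19.0% of the whole Dzip3 end, and 3 regions are too few to show a difference. The region in a coding exon of Wnt10b, 0.679 kb downstream of its TSS, had 70 Dzip3, 12 ubH2A, 131 Ring1B and 2 input reads, a ratio of 7.34 (3.95 to 14.9). The names of the other 4 were given after their values were seen.

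Of the listed pluripotency genes, 5 of 23 (21.7%) had a region of the ubH2A end within 100 kb and none had one of the Dzip3 end. The difference between these counts was not tested, and the 5 genes were named after their values were seen, apart from Esrrb. In an intron of Esrrb, an orphan nuclear receptor of the naive state, 7.26 kb downstream of a TSS, there were 5 Dzip3, 78 ubH2A, 14 Ring1B and 4 input reads, a ratio of 12.4 to ubH2A (5.09 to 39.2). Pou5f1, which encodes Oct4, had a region 16.1 kb downstream, in an intron of Cchcr1, with 10 Dzip3, 81 ubH2A, 27 Ring1B and 0 input reads. Klf2 had one 33.0 kb upstream, with 6 Dzip3, 75 ubH2A, 62 Ring1B and 11 input reads, and it was the only one of the 5 with a Ring1B peak. Sox2 had one 38.0 kb downstream (8, 90, 24 and 2 reads, in the same order) and Lin28a one 94.2 kb upstream (8, 74, 20 and 1 reads).

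Of 43 Polycomb and H2A ubiquitin genes, 1 (2.33%) was near the Dzip3 end and none near the ubH2A end. This was Usp16, which encodes an H2A deubiquitylase. Its region lay 3.72 kb from the TSS in an intron of Cct8, with 83 Dzip3, 12 ubH2A, 27 Ring1B and 22 input reads, a ratio of 8.70 (4.73 to 17.5), and all of its words are repeated in mm9. Large receptor families had few regions of any ratio, which 273 of 1087 olfactory receptor genes (25.1%) and 113 of 320 vomeronasal receptor genes (35.3%) had within 100 kb, against 47.3% of all genes. Of the olfactory receptor genes, 18 (1.66%) were near the Dzip3 end and 27 (2.48%) near the ubH2A end, from 3 and 7 regions, and Olfr1513 and Olfr282 had one of the ubH2A end within 10 kb. Of the vomeronasal receptor genes, 1 (0.3125%) was near the Dzip3 end and 2 (0.625%) were near the ubH2A end. Of 36 protocadherin genes, 29 (80.6%) had a region of any ratio, 1 (2.78%) a region of the Dzip3 end and none one of the ubH2A end. Over all protein-coding genes the shares at the ends were 4.44% and 4.48%, so these protocadherin counts are too small to show a difference. Of 371 Zfp genes, which encode zinc-finger proteins, 17 (4.58%) and 20 (5.39%) were near the ends, and Zfp263 had a region of the ubH2A end at 4.03 kb.

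Of the 10 genes named by the study, 7 had a region of any ratio within 100 kb, and 1 of them, Shank3, had one of an end. Shank3, a scaffold protein gene of synapses, had a region of the Dzip3 end 39.6 kb upstream, in an intron of Mapk8ip2, with 70 Dzip3, 6 ubH2A, 21 Ring1B and 2 input reads, a ratio of 14.7 (6.42 to 41.4). The nearest region of T, the gene for Brachyury, was 87.4 kb away and balanced, with 66 Dzip3, 74 ubH2A, 121 Ring1B and 6 input reads (ratio 1.12, 0.793 to 1.59), and it overlapped a Ring1B peak. That of Neurod1, a neurogenic factor, was 32.0 kb away with 87 Dzip3, 28 ubH2A, 37 Ring1B and 2 input reads (ratio 3.91, 2.53 to 6.22). That of Acta1, skeletal muscle actin, was 11.4 kb away and leaned to ubH2A, with 13 Dzip3, 83 ubH2A, 25 Ring1B and 8 input reads (ratio 0.197, 0.101 to 0.356). None of the 10 genes had a region within 10 kb, which 9.29% of all protein-coding genes had, so this count is too small to show a difference. Merged regions whose kept peak overlapped an input peak are not among these regions. By ChIP-qPCR the paper reports Dzip3 at the promoters of Neurod1, Neurog1 and Cdh2. It also shows ChIP-seq profiles of Dzip3, Ring1B and ubH2A near promoters, with which these regions were not compared.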

How the data were processed

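The authors mapped the reads to mm9 with 1 mismatch allowed and called peaks on each library by itself with Partek software (FDR 0.1). The deposited lists give, for each peak, counts of the reads of every library, the height as counts and as RPM, a p-value and a scaled ratio (fold) against input DNA, and the percent of the peak that each other list covers. Positions were used as listed.

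The p-values were not used here. Library sizes were computed from height in counts over RPM. Rows with other than 18 fields were left out (1 of the ubH2A list). Ratios have exact (Clopper-Pearson) intervals, medians order-statistic intervals and shares Wilson intervals, all at 95%. TSSs came from the GENCODE annotation of the same build (Ensembl release 65). Named regions and genes are the 10 with the most extreme interval bound at each end, and list members are named if a region of an end lies within 10 kb of a TSS. Some items that this rule selects are not reported here. Regions and lists were chosen with earlier results of these data known. Merging was tested on simulated data, where 3000 of 3000 regions were found. Of the merged regions, 5 end past a chromosome end of the reference, and sequence there was cut. Tables were handled in pandas 2.3.3 and numpy 2.4.6 under Python 3.11.15, words counted with numba 0.67.0, intervals computed with scipy 1.17.1, and plots drawn with matplotlib 3.10.9. Alternatives were another pseudocount, scaling, filter, chromosome set, size of the ends, annotation and distance, and, after the data were seen, less repeated and longer regions.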

Additional observations from a re-analysis of the deposited data

How the results depend on the processing

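No paired analysis was possible because each target has 1 library. Of 89 alternative values, 59 stayed inside the interval of the reported value (counts within 1.5 times) and 30 moved. Only the median log2 ratio could change sign, and it did so in no alternative. The order of the 4-fold shares turned over with centring on regions of both lists. On chromosomes with complete lists the median log2 ratio was 0.11, with 11.8% of regions at 4-fold or more to Dzip3 and 9.17% to ubH2A. With 5 reads added in place of 0.5 these shares were 10.1% and 5.93%, and with centring on regions of both lists 8.50% and 11.7%. With ends of 1%, the Dzip3 end lay 75.1 kb from a TSS with 5.00% within 4 kb and 27.5% with a Ring1B peak, and the Ring1B medians were 1.77 in the Dzip3 end and 1.77 in the ubH2A end (RPM per kb). With all annotated genes the distances were 24.6 kb (Dzip3 end) and 21.6 kb (ubH2A end), with 15.7% of the ubH2A end within 4 kb. Within 10 kb in place of 100 kb, 129 and 115 genes were reached. The following were added after the data were seen. With at most 50% repeated words, 15.5% were 4-fold or more to Dzip3 and 12.7% to ubH2A, the ends lay 19.6 and 20.5 kb from a TSS with 19.3% and 16.2% within 4 kb, 5.58% and 4.57% overlapped a Ring1B peak, and the Ring1B median of the Dzip3 end was 1.84. Without regions of 200 bp the 4-fold shares were 11.2% and 7.44%, and among regions of both lists 1.02% and 0.073%. The depth limits single ratios most where the low library has 3 or fewer reads.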
